A study of Mus musculus with 26 samples.

Results

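The genes described here are 10 members of the lysosomal clearance machinery. They are the cysteine cathepsins Ctsb, Ctsh, Ctsk, Ctsl, Ctss and Ctsz, the aspartic protease Ctsd, legumain (Lgmn), the endolysosomal glycoprotein Cd68, and cystatin C (Cst3), a secreted inhibitor of cysteine cathepsins. They were chosen by name, with earlier results of these data known. Each symbol was found once in either expression table, among 53465 genes in the muscle table and 55487 in the cell table.

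Lysosomal cathepsins cut the proteins that reach the lysosome by endocytosis, phagocytosis and autophagy, and most are made as inactive precursors that are activated by the acid interior of the compartment. Phagocytes that clear dying tissue hold large amounts of them, and Cd68 sits in the limiting membrane of the same late endosomes and lysosomes. In injured skeletal muscle, infiltrating macrophages engulf the debris of necrotic fibres before new fibres form.

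RNA-seq was performed on tibialis anterior (TA) muscle of C57BL/6J mice, described in the study's methods as male and aged 6 weeks, at day 0 and on days 1, 3, 5 and 10 following an injection of cardiotoxin (CTX), a snake venom toxin that destroys myofibres, with 2 libraries per day. A separate table held C2C12 cells, an established mouse myoblast line, as control (Ctrl) or Mettl3 knockdown (Cas9M3) cells, each in growth medium (GM) and at day 3 in differentiation medium, with 2 libraries per group. The Cas9M3 cells were a stable, puromycin-selected line with a dCas9-KRAB repressor directed to the promoter of Mettl3, an RNA methyltransferase, although the deposit's description speaks of a knockout. Both tables give FPKM, fragment counts scaled by exon length and by library size, and 8 further libraries of Mettl3-overexpressing and GFP cells were not analysed here. Whether day 0 muscles were untouched or injected with saline, whether libraries came from separate animals or cultures, and whether the Cas9M3 line was 1 clone is not given in the sources used here, so p-values measure the spread between these libraries, which may be technical.

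The depth implied by the smallest values was 14170000 to 18820000 reads on genes per muscle library and 14230000 to 29560000 per cell library. Mettl3 was at 4.68 to 5.65 FPKM in the control C2C12 libraries and at 0.0805 to 0.331 in the knockdown libraries. The myofibre markers summed to at least 56735 FPKM in day 0 muscle. C2C12 cells expressed Myod1 and Myf5, and 4 of 10 macrophage markers (Adgre1, C1qa, C1qb and C1qc) were listed at 0 in all 8 cell libraries. Xist was at 5.77 FPKM or more in both day 0, both day 10 and 1 of the day 3 muscle libraries and at most 0.152 FPKM in the other 5, although the methods describe male mice, so day 1 and day 5 cannot be told apart from Xist status when set against day 0.

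In muscle the highest mean of each lysosomal protease fell on day 3 after CTX, with the exception of Ctsk, whose highest mean was on day 5. At day 3 against day 0, 9 of the 10 genes had risen and Cst3 had not passed the test, with a share of 24.5% of all 16753 tested genes called higher and 48.8% called in either direction. The median log2 fold change of the 10 genes was 2.61, against 0.01 over all tested genes. By fold change the order was Ctss, Cd68, Ctsh, Ctsk, Lgmn, Ctsz, Ctsb, Ctsl and Ctsd, from 46.2-fold down to 1.60-fold. A call here is an adjusted p of at most 0.05 in limma, fitted over all tested genes on log2(FPKM + 0.1), a scale that understates the change of low genes, and with 2 libraries per group an exact permutation test of a single gene cannot go below 0.333. Without each of the 4 libraries in turn, 7 to 8 of the 10 stayed called, and the calls that were lost belonged to Ctsd, Ctsk and Ctsl. A term for Xist status kept 6, namely Ctsb, Ctsh, Ctss, Ctsz, Lgmn and Cd68, beside 34.9% of all tested genes called. Fewer of all tested genes were called in each of these fits too, so the lost calls are not particular to these genes.

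**Figure D1:**
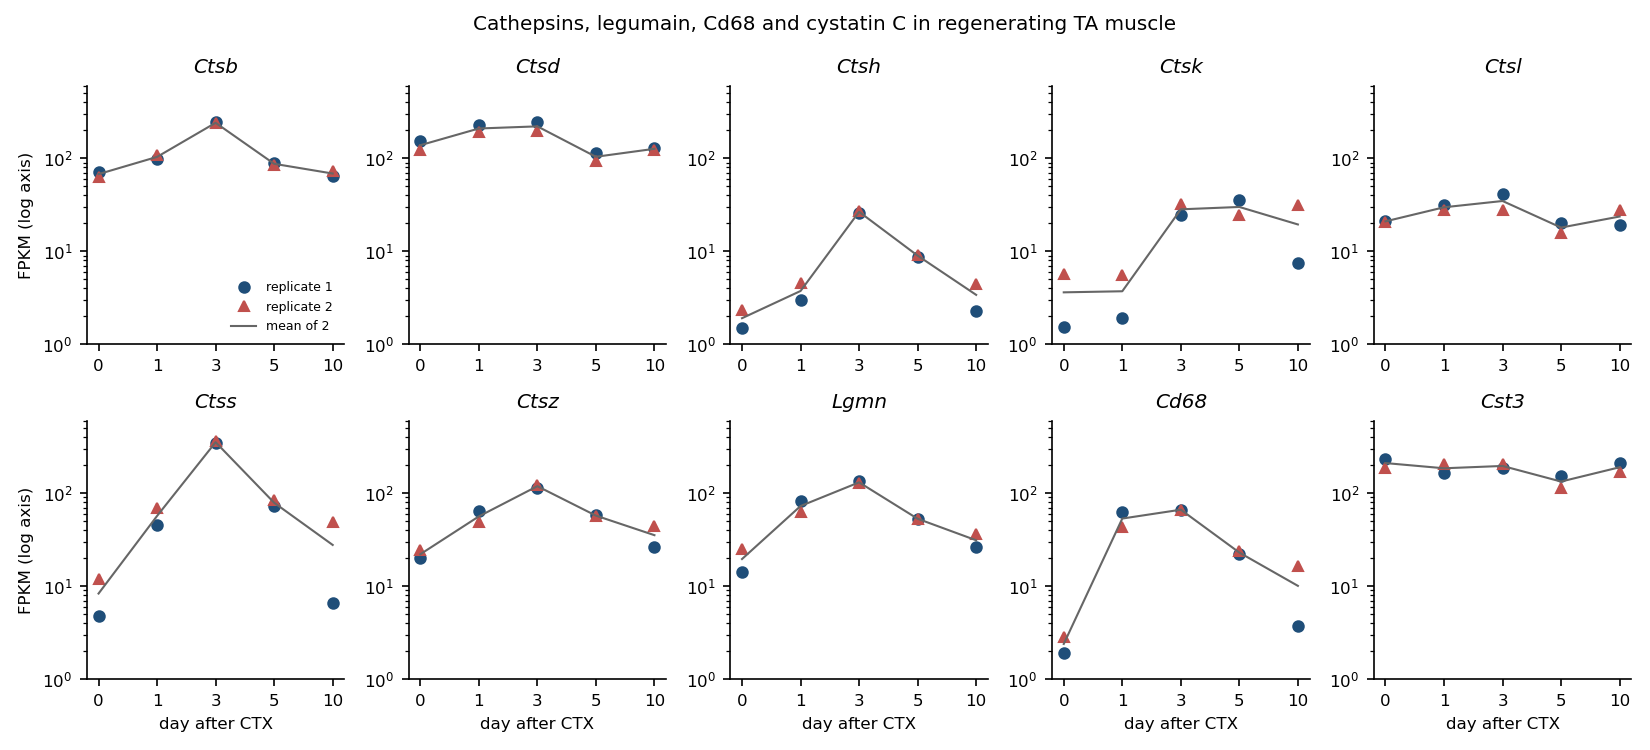
FPKM of each gene (log axis) in the 2 libraries of each day after CTX, circles for replicate 1, triangles for replicate 2 and a line through the means. Ctss rises from 4.79 and 11.9 FPKM on day 0 to 346 and 360.5 on day 3, whereas Cst3 stays between 112 and 235 FPKM in all 10 libraries.

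Promoter windows from RefSeq on GRCm38.p6, each of 250 bases before and 50 after an annotated start, were matched for 8 of the 10 genes, with no window for Ctsb and Ctsh. Those of 4 genes with different courses are shown: Ctss with the largest fold change, its neighbour Ctsk with the latest peak, Cd68 with a called rise on day 1, and Ctsd with a small rise. Capitals mark 3 motifs searched on both strands, which were picked with these sequences in view: CACGTG, the core letters of the element bound by the lysosomal regulator TFEB, GAGGAAGT, a site of the PU.1 type, and TGANTCA, a site of the AP-1 type.
Ctss: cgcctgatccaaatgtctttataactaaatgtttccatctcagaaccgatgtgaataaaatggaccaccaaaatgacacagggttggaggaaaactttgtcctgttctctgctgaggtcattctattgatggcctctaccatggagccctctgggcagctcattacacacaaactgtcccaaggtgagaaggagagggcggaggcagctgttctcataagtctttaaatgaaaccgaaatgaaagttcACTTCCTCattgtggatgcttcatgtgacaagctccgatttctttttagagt
Ctsk: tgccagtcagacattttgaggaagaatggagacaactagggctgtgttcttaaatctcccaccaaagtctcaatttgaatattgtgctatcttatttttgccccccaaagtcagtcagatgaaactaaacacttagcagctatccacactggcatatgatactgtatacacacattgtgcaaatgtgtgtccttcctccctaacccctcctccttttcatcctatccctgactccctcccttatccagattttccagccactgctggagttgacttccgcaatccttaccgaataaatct
Cd68: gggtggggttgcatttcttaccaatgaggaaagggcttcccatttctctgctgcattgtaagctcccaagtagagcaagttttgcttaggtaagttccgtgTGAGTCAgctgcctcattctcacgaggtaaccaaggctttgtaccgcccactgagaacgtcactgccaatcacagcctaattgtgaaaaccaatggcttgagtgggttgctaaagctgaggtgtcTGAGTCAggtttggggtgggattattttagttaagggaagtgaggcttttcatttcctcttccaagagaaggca
Ctsd: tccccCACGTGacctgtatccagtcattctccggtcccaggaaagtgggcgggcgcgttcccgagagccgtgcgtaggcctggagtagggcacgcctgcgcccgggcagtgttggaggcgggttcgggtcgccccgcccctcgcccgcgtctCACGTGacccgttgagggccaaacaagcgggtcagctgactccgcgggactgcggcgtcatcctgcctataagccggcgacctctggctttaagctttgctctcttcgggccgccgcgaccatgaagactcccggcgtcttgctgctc
The windows lie at chr3:95526536-95526835 and chr3:95498960-95499259 on the plus strand and at chr11:69666121-69666420 and chr7:142387778-142388077 on the minus strand. The Ctss window held GAGGAAGT once, on the minus strand, the Cd68 window held TGANTCA at 2 places, and the Ctsd window held CACGTG at 2 places. The Ctsk window held none of the 3, nor did those of Ctsz and Cst3, which says only that these letters were absent from the windows. CACGTG was also in the Ctsl window and in 1 of the 2 Lgmn windows. Over the 32851 promoters searched, 7.15% held CACGTG, 3.20% GAGGAAGT and 7.81% TGANTCA. That set left out 1 chromosome, which holds none of the 10 genes. A match is a description of letters and no evidence of binding.

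Ctss, Cd68 and Ctsh had the largest fold changes at day 3 against day 0. Ctss encodes cathepsin S, which trims the invariant chain in antigen-presenting cells. It was at 4.79 and 11.9 FPKM (day 0), 45.3 and 68.6 (day 1), 346 and 360.5 (day 3), 72.8 and 84.9 (day 5), and 6.55 and 48.9 (day 10). Both day 3 libraries lay above all others, and the day 10 libraries lay far apart, with one inside the day 0 range. The log2 fold change at day 3 against day 0 was 5.53 (SE 0.83, adjusted p = 0.00156), a call that held in every alternative tried, with adjusted p up to 0.0136. With a mean of 353 FPKM on day 3 it was the highest of the 10 genes per exon length, above 99.5% of tested genes.

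Cathepsin H, an aminopeptidase encoded by Ctsh, was at 1.50 and 2.31 FPKM on day 0 and 2.96 and 4.52 on day 1. It then stood at 25.9 and 27.2 FPKM (day 3), 8.74 and 9.22 (day 5), and 2.31 and 4.49 (day 10). Only 7.43% of its day 0 to day 3 rise in mean FPKM was present on day 1. The change from day 1 to day 3 was 2.83 on the log2 scale (SE 0.34, adjusted p = 0.00273), whereas that from day 0 to day 1 was 0.94 (SE 0.34, adjusted p = 0.131).

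Cd68, widely used as a macrophage marker, had its called rise on day 1. Its FPKM was 1.92 and 2.86 (day 0), 63.1 and 43.5 (day 1), 66.1 and 66.7 (day 3), 22.3 and 23.6 (day 5), and 3.70 and 16.4 (day 10). Day 1 and day 3 were both above day 0, and most of the rise in mean FPKM, 79.6%, was present on day 1. The log2 fold change was 4.43 from day 0 to day 1 (SE 0.59, adjusted p = 0.0200) and 0.34 from day 1 to day 3 (SE 0.59, adjusted p = 0.687). The day 1 call was lost without the first day 1 library and without either day 0 library, with log2 fold changes of 4.15 to 4.70 over the fits without 1 library.

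Legumain and cathepsins B and Z formed a group with intermediate changes from higher starting levels. Lgmn encodes an endopeptidase that cuts after asparagine and matures several cathepsins. It was at 14.2 and 24.9 FPKM (day 0), 82.5 and 62.9 (day 1), 134 and 127 (day 3), 52.8 and 53.3 (day 5), and 26.1 and 36.2 (day 10). Its log2 fold change was 1.93 at day 1 (SE 0.28, adjusted p = 0.0204) and 2.79 at day 3 (SE 0.28, adjusted p = 0.000407), both against day 0. From day 1 to day 3 the difference of 0.86 narrowly missed the threshold (adjusted p = 0.0504) and passed it in 4 of the alternatives.

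Ctsz encodes cathepsin Z, a carboxypeptidase. It was at 19.8 and 24.2 FPKM (day 0), 64.0 and 48.4 (day 1), 114 and 124 (day 3), 57.9 and 56.8 (day 5), and 26.1 and 44.5 (day 10). The day 3 value was 5.40-fold that of day 0 (log2 2.43, SE 0.26, adjusted p = 0.000460). Ctsb, the broadly expressed cathepsin B, was at 72.0 and 63.3 FPKM (day 0), 98.3 and 109 (day 1), 244 and 238 (day 3), 89.9 and 84.7 (day 5), and 64.7 and 72.5 (day 10). The day 10 values lay close to those of day 0, and the day 3 rise of 3.57-fold had the smallest standard error of the 10 genes (log2 1.84, SE 0.13, adjusted p = 0.000263). Its day 1 rise of 1.53-fold was called (adjusted p = 0.0420), but the call was lost without any 1 of the 4 libraries.

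Cathepsins D and L changed least among the proteases. Ctsd, the main aspartic protease of lysosomes, was at 155 and 122 FPKM (day 0), 228 and 190.3 (day 1), 244 and 198 (day 3), 114 and 93.5 (day 5), and 130.4 and 123 (day 10). Its day 1 and day 3 ranges overlapped, and the log2 fold change at day 3 against day 0 was 0.68 (SE 0.19, adjusted p = 0.0213). That call was lost without the first day 3 or the second day 0 library, with adjusted p up to 0.124 over all alternatives. Ctsl, a broad endopeptidase, was at 21.2 and 20.8 FPKM (day 0), 31.7 and 27.8 (day 1), 41.8 and 27.8 (day 3), 20.1 and 15.9 (day 5), and 19.3 and 28.0 (day 10). The log2 fold change of 0.70 at day 3 (SE 0.25, adjusted p = 0.0490) lay at the threshold and was lost without the first day 3 library or either day 0 library, with adjusted p up to 0.271.

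Cathepsin K, a collagen-degrading protease best known from osteoclasts, followed another course. Ctsk was at 1.54 and 5.70 FPKM (day 0), 1.89 and 5.54 (day 1), 24.6 and 32.0 (day 3), 35.6 and 24.4 (day 5), and 7.56 and 31.3 (day 10). The day 0 and day 1 ranges nearly coincided, the day 5 range enclosed the day 3 range, and the second day 10 library was still at the day 3 level. The log2 fold change was 3.19 at day 3 (SE 0.82, adjusted p = 0.0145) and 3.26 at day 5 (SE 0.82, adjusted p = 0.0284), both against the same day 0 libraries. The day 3 call was lost without the second day 3 or the first day 0 library and with the term for Xist, with adjusted p up to 0.0917. From day 3 to day 5 it differed by 0.07 (SE 0.82, adjusted p = 0.973). Osteoclast markers summed to at most 6.31 FPKM in any muscle library, a list without Acp5, which averaged 14.4 FPKM on day 3. Fibroblast markers summed to 675 to 759 FPKM on day 3 and 854 to 972 on day 5. Of these, Col1a1 and Col3a1 averaged 352 and 261 FPKM on day 3. The mean log2 level of the fibroblast list was 3.40 on day 0 and 5.04 on day 3. The part of either cell type in the Ctsk level was not tested.

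Cystatin C, the inhibitor, was at 235 and 186 FPKM (day 0), 166 and 205 (day 1), 189 and 204 (day 3), 154 and 112 (day 5), and 209.7 and 170.3 (day 10). The ranges of days 0, 1, 3 and 10 overlapped, and the day 5 libraries were the lowest. In the main fit, no muscle comparison called Cst3. Its log2 fold changes against day 0 in limma were -0.09 at day 3 (SE 0.21, adjusted p = 0.741) and -0.67 at day 5 (SE 0.21, adjusted p = 0.0557). Under quantile normalization the day 3 value was 0.50 and still missed the threshold, while the fall from day 3 to day 5 passed it (adjusted p = 0.0342).

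The balance between cysteine cathepsin and Cst3 transcripts shifted over the course. Cstb, an intracellular inhibitor with a mean of 11.6 FPKM on day 0 and 58.2 on day 3, was not part of it. On the FPKM scale, the 6 cysteine cathepsins summed to 0.601 times Cst3 (day 0), 1.38 times (day 1), 4.10 times (day 3), 2.15 times (day 5) and 0.976 times (day 10), as means over 2 libraries. The 2 day 10 libraries lay far apart, at 0.603 and 1.35 times. Among the 8 proteases, Ctss made up 1.65% and 4.32% of the summed FPKM in the day 0 libraries (mean 2.98%) and 29.5% and 31.8% in the day 3 libraries (mean 30.6%), while the mean share of Ctsd went from 48.9% to 19.1%. The day 0 sum was 282 FPKM and the day 3 sum 1155 FPKM, as means of 2 libraries. These are transcript ratios per exon length and say nothing of enzyme activity.

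**Figure D2:**
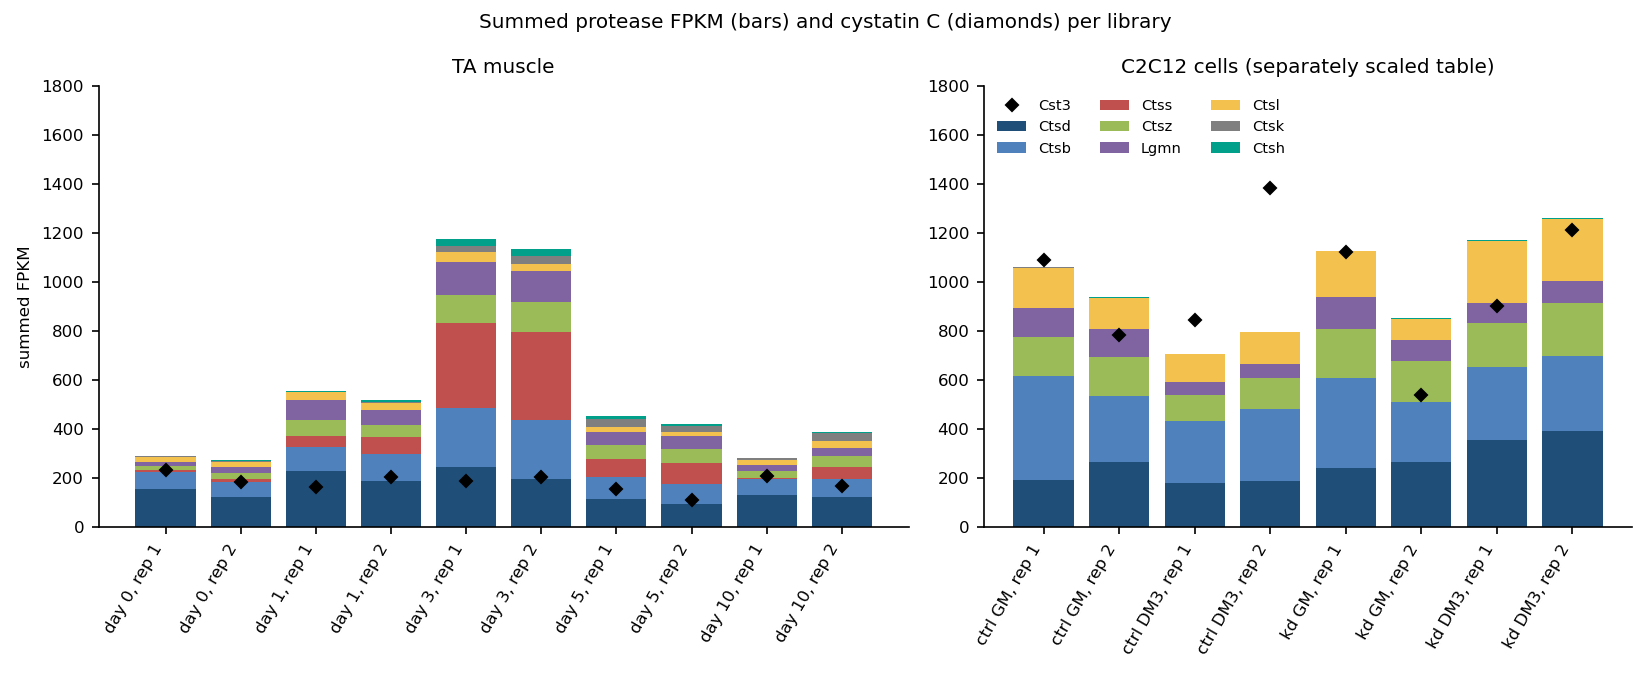
Stacked bars give the summed FPKM of 8 proteases and diamonds the FPKM of Cst3 in each muscle (left) and C2C12 (right) library, where kd is Mettl3 knockdown, ctrl control, GM growth medium and DM3 differentiation day 3. The bars of both day 3 muscle libraries are the tallest in the left panel, with a mean sum of 1155 FPKM, and Ctss is visible as a bar segment only in muscle.

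The calls of rises fell at different steps. At day 1 against day 0, 4 genes were called higher (Ctsb, Ctsz, Lgmn and Cd68), with 3.53% of all tested genes called higher, 2.47% lower and 6% in either direction. Without the first day 1 library and without the first day 0 library the count was 0, without the second day 0 library it was 1, and without the second day 1 library it was 3. Between days 1 and 3, 5 genes (Ctsb, Ctsh, Ctsk, Ctss and Ctsz) received upward calls, Ctsb and Ctsz at both steps, beside 14.5% of all tested genes called higher, 16.6% lower and 31.1% in either direction. That count was 2 without either day 3 library and 3 without either day 1 library. Ctss was 7.30-fold higher on day 1 than on day 0 but missed the threshold (adjusted p = 0.0808). In the fits without 1 library, fewer of all tested genes were called too, except at day 1 against day 0 without the second day 1 library. The lost calls are thus not particular to these genes. Differences in timing between genes were not tested.

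**Figure D3:**
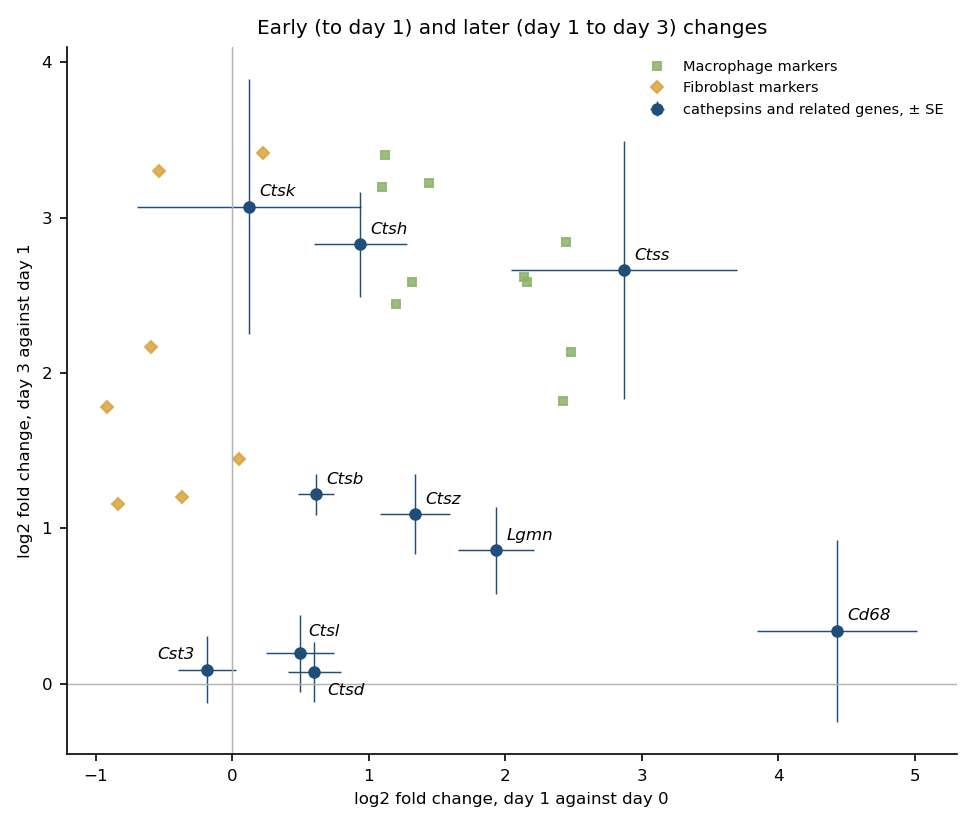
Each point gives the log2 fold change at day 1 against day 0 (x axis) and at day 3 against day 1 (y axis), comparisons that share the day 1 libraries, with SE bars for the cathepsins and related genes, squares for macrophage markers and diamonds for fibroblast markers. Cd68 lies at 4.43 and 0.34, whereas Ctsk lies at 0.12 and 3.07.

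The decline after day 3 was uneven. At day 5 against day 3, 6 genes were lower (Ctsb, Ctsd, Ctsh, Ctsl, Ctsz and Lgmn), with 5.46% of all tested genes called lower, 7.23% higher and 12.7% in either direction, but the count was 1 without either day 5 library or the first day 3 library and 0 without the second day 3 library. Ctsb fell by 1.46 on the log2 scale (SE 0.13, adjusted p = 0.00507). Ctss and Cd68 had differences of -2.17 and -1.53 that did not pass (adjusted p = 0.131 for both). At day 5 against day 0, 6 genes were still called higher (Ctsh, Ctsk, Ctss, Ctsz, Lgmn and Cd68), beside 12.9% of all tested genes called higher, 12.5% lower and 25.5% in either direction, a count that was 1 without the first day 5 library, 0 without the second day 5 or the first day 0 library, and 6 without the second day 0 library. All of these day 5 calls were lost with the term for Xist, as were the day 1 calls and the calls of day 5 against day 3. With that term 0% of all tested genes were called in any of these comparisons. Only day 3 held libraries of both Xist states, so this loss is no result about the members. In the fits without 1 library, fewer of all tested genes were called as well.

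By day 10, 7 genes were lower than on day 3 (all but Ctsk, Ctsl and Cst3), with 18.8% of all tested genes called lower, 19.1% higher and 37.9% in either direction, and 6 to 7 stayed called without any 1 library. Ctss had fallen by 4.29 on the log2 scale (SE 0.83, adjusted p = 0.00628) and Ctsh by 3.01 (SE 0.34, adjusted p = 0.000891). Against day 0, limma called 0 of the 10 genes, beside 0.00597% of all tested genes. At an unadjusted p under 0.05, for which no share of all tested genes was computed, there were 4. These were Ctsk (log2 fold change 2.33), Cd68 (1.70), Lgmn (0.70) and Ctsz (0.64). The second day 10 library was the higher one for 8 of the 10 genes and for 10 of 10 macrophage markers, whose median log2 gap between the libraries was 1.47. Without that library Ctss on day 10 was 0.20 below day 0 on the log2 scale, and without the other it was 2.68 above.

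Both day 3 libraries lay above all 8 other muscle libraries for 6 of the genes (Ctsb, Ctsh, Ctss, Ctsz, Lgmn and Cd68), as they did for 18.8% of all tested genes. The summed FPKM of 10 macrophage markers moved with them, at 53.5 to 109 (day 0), 301 to 399.5 (day 1), 1806 to 1852 (day 3), 531 to 619 (day 5) and 80.7 to 296 (day 10). At day 3 against day 0, 10 of 10 macrophage markers were called higher, with a median log2 fold change of 4.57, led by Mpeg1 (5.29) and the F4/80 gene Adgre1 (4.75). Neutrophil markers were low, at 11.7 to 20.6 FPKM in sum on day 1 and at most 8.75 on any other day. Myogenic cell markers also summed highest on day 3, at 1005 to 1508 FPKM, against 40.2 to 55.7 on day 0. Their largest log2 rises at day 3 against day 0 were those of Mymx (6.86) and Mymk (6.76). Myofibre markers summed lowest on day 3, at 15088 to 18923 FPKM, against 56735 to 62634 on day 0. In bulk muscle, more cells of a type and more RNA per cell cannot be told apart.

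Set against the macrophage markers, the genes differed in how much of their course remained. The level of each gene was expressed as log2(FPKM + 0.1) minus the mean of the 10 markers on the same scale. Ctss then spanned 1.48 log2 units over the 10 libraries instead of 6.20, and Ctsh spanned 1.13 instead of 4.10. For Cst3 the span grew from 1.06 to 5.23 and for Ctsd from 1.38 to 4.55. Cd68 stood 2.23 above the marker mean on day 1, against -0.41 on day 0 and -0.11 on day 3. Ctsk was 1.35 below the marker mean on day 3 but 1.39 above it on day 10. How far marker abundance accounts for any of these levels was not tested.

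**Figure D4:**
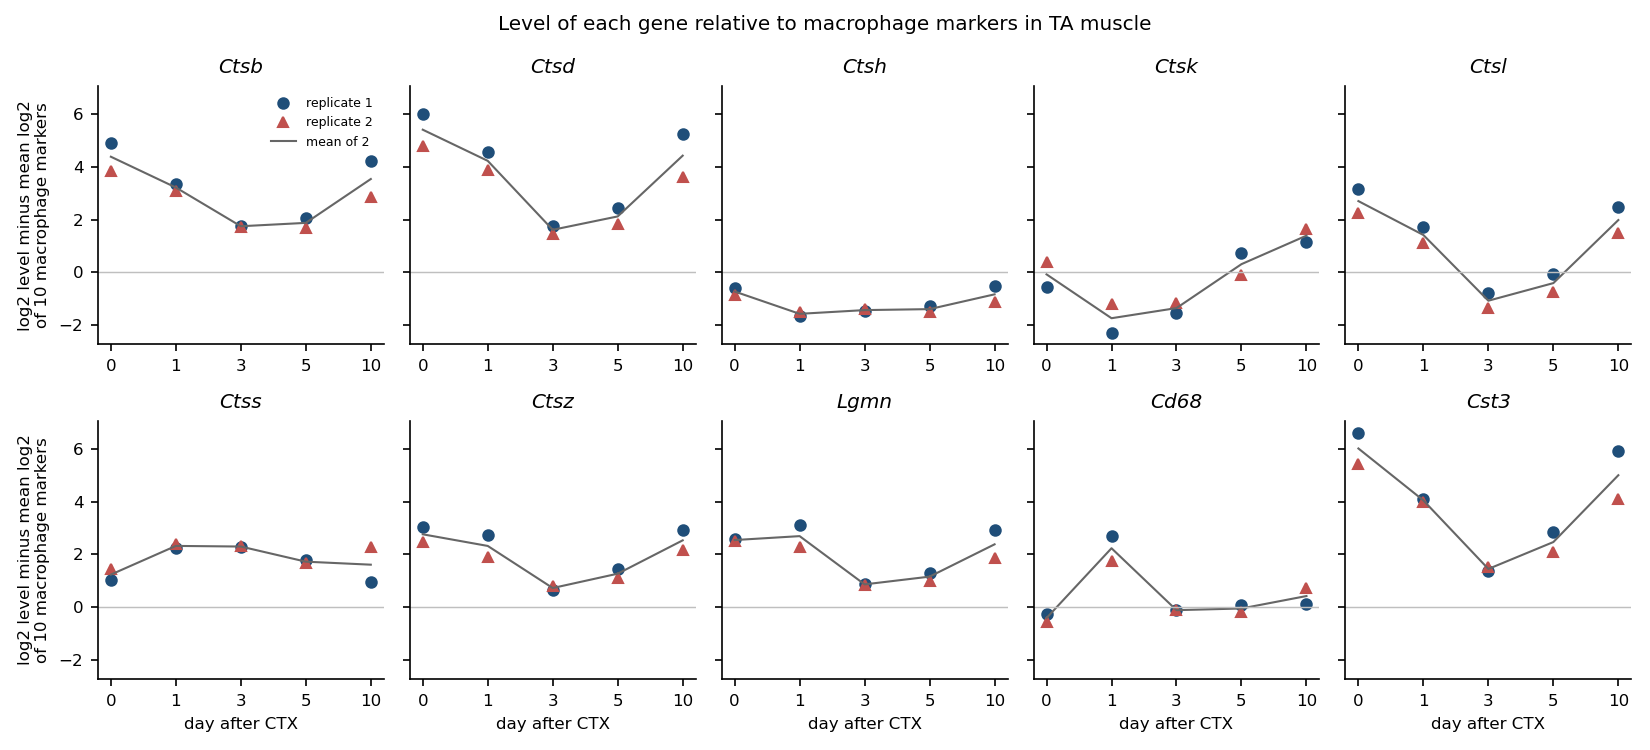
Each panel gives a gene's log2(FPKM + 0.1) minus the mean of 10 macrophage markers on the same scale, in the 2 libraries of each day after CTX, with a line through the means. Ctss and Ctsh have the smallest spans of the 10 genes, at 1.48 and 1.13 log2 units, while Cd68 is highest on day 1 with a mean of 2.23.

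Among the 12285 tested genes averaging 1 FPKM or more in muscle, the closest patterns to each gene were ranked by Pearson correlation over the same 10 libraries. All values share the libraries and their time course, so they are given as description. Ctss was closest to Lyz2 (r = 0.999), the lysozyme gene of myeloid cells, followed by Rassf5 and Cd37. Cd68 was closest to Cd300lb (0.988), C5ar1 (0.987), the receptor for complement C5a, and Cd44 (0.986). Ctsh was closest to Clcn5 (0.993) and Unc93b1 (0.993), the chaperone of endosomal Toll-like receptors, and Ctsb to Ctsc (0.987), another cathepsin. Lgmn was closest to Mcub (0.994), with the V-ATPase subunit gene Atp6v1a in the third place (0.990). Ctsz was closest to the ribosomal protein gene Rpl3 (0.991). For Ctsk the nearest were C1qtnf2 (0.977), Gm22249 (0.976) and the microfibril gene Mfap5 (0.973). Cst3 was closest to Klhl26 (0.954) and the lysosomal membrane gene Lamp1 (0.950), Ctsd to Mlx (0.977), and Ctsl to Rpn1 (0.898), the lowest first-place value of the 10.

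Across the rest of the lysosomal system the median changes on day 3 were positive but smaller than that of the 10 genes. The 10 genes and the lists were chosen with earlier results known, so the order of these medians is a description only. Of 36 lysosomal hydrolases and cofactors, 28 were called higher and 2 lower at day 3 against day 0, with a median log2 fold change of 1.40. The largest rises were those of the tartrate-resistant acid phosphatase gene Acp5 (4.69) and the sulfatase gene Galns (3.60), and the falls were those of the sphingomyelinase gene Smpd1 (-0.98) and Aga (-0.76). Of 22 lysosomal membrane proteins, 10 were higher and 4 lower (median 0.34), led by Gpnmb (4.55) and Laptm5 (4.34). The falls included Mfsd8 (-1.13) and Ostm1 (-0.70). Of 18 V-ATPase subunits, which acidify the lysosome, 7 were higher and 2 lower (median 0.27), with Tcirg1 at 3.07 and Atp6v1a at 1.38. The falls were those of Atp6v1g1 (-0.60) and Atp6v1d (-0.46). Of 13 sorting receptors and lysosomal transcription factors, 6 were higher and 4 lower (median 0.45), with the sorting adaptor Gga2 at 1.91, the mannose-6-phosphate receptor M6pr at 0.97 and Tfeb, which drives lysosomal genes, at -1.46.

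Engulfment genes had a higher median than these lists. Of the 25 engulfment receptors and bridging molecules tested, 19 were called higher and 2 lower (median 2.67), led by the Fc receptor gene Fcgr1 (5.20) and the adaptor gene Tyrobp (4.95), while the scavenger receptor Cd36 was lower (-1.83). Among 5 other cathepsins tested, 3 were higher and 1 lower. Ctsw, a cathepsin of cytotoxic lymphocytes, was at 2.82 and Ctsc, which activates granule proteases, at 2.06, whereas Ctsf fell by 1.21 on the log2 scale. Of 3 further cystatins tested, the intracellular inhibitor Cstb was higher (2.32) and 1 was lower. Each of these counts stands beside 24.5% of all tested genes called higher and 24.3% called lower.

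In C2C12 cells the macrophage markers Adgre1, C1qa, C1qb and C1qc were listed at 0. Lyz2 was at 0.472 to 7.03 FPKM and Csf1r at 0.0520 to 0.424. Of the 10 genes, 6 were abundant, Cd68 and Ctsh were low, and Ctsk and Ctss were near 0. Cst3 was the highest of the 10 in every group, at 539 to 1383 FPKM, above 99.8% of tested genes in control growth medium. Ctsb stood at 242 to 427 FPKM, Ctsd at 181 to 392, Ctsl at 86.3 to 254, Ctsz at 106 to 214 and Lgmn at 52.9 to 130.4 over the 8 libraries. Cd68 stood at 0.669 to 6.38 FPKM and Ctsh at 0.122 to 3.96. Ctsk reached at most 0.775 FPKM, worth 37 reads, and Ctss at most 0.201 FPKM, worth 7 reads, so that both failed the minimum of 0.5 FPKM in 2 libraries and were not tested. Ctss, the highest of the 10 in day 3 muscle, was thus the lowest or next to lowest in every cell group, in a table that was scaled separately. The cysteine cathepsins summed to 0.702 times Cst3 in control growth medium, 0.479 times at control day 3, 0.802 times in knockdown growth medium and 0.728 times at knockdown day 3.

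**Figure D5:**
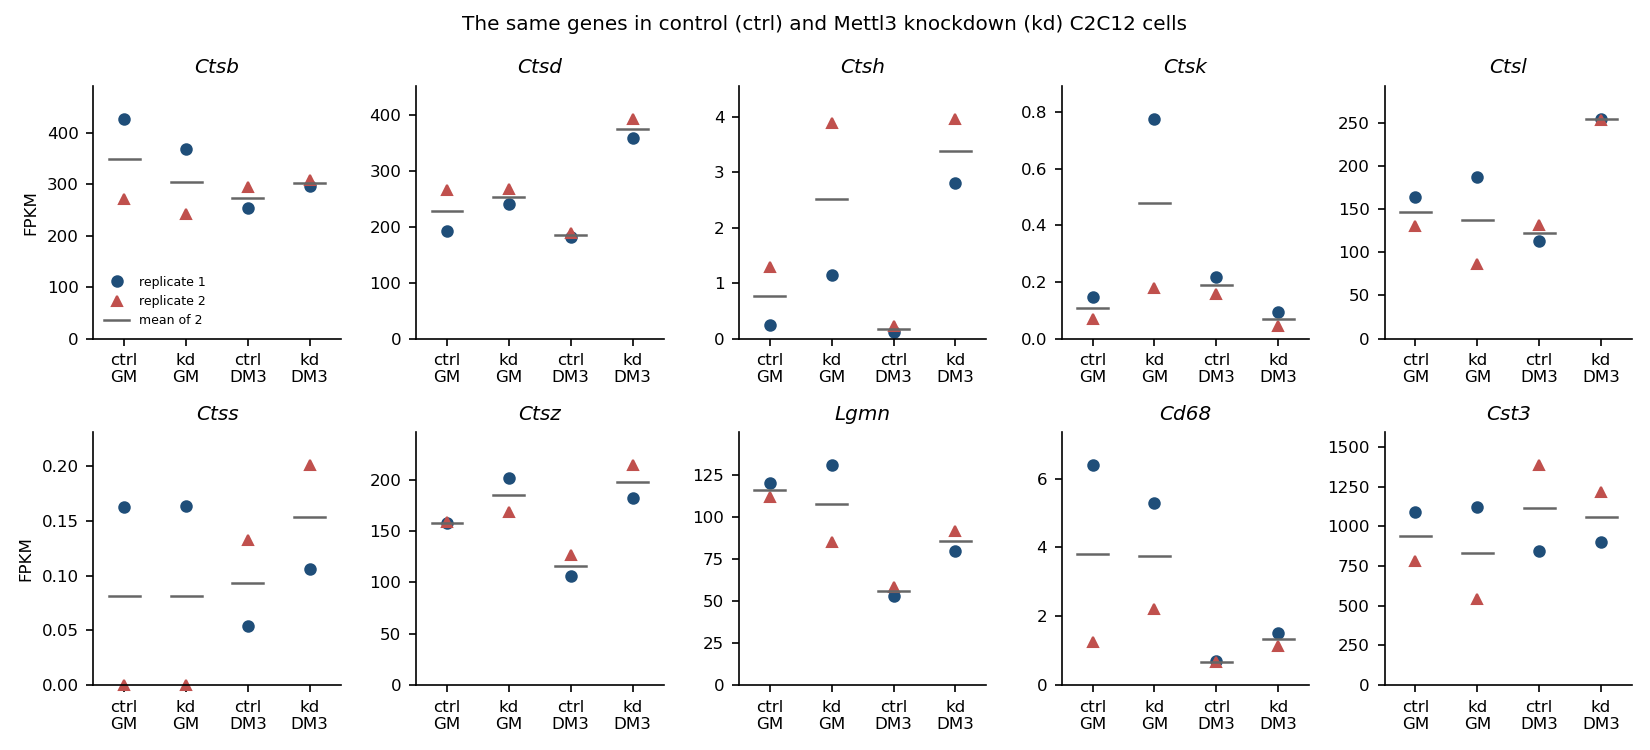
FPKM of each gene in the 2 libraries of control (ctrl) and Mettl3 knockdown (kd) C2C12 cells in growth medium (GM) and at differentiation day 3 (DM3), with a bar at the mean. At DM3 both knockdown libraries lie above both control libraries for Ctsd, at 357 and 392 against 181 and 188 FPKM, and for Ctsh, at 2.80 and 3.96 against 0.122 and 0.227 FPKM.

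Differentiation alone called 0 of the 8 tested genes by limma in control cells (1.14% of all tested genes called). At an unadjusted p under 0.05, for which no share of all tested genes was computed, there were 2. These were Lgmn, at 120 and 112 FPKM in growth medium and 52.9 and 58.3 at day 3 (log2 -1.06, SE 0.25, adjusted p = 0.110), and Cd68, at 6.38 and 1.24 against 0.696 and 0.669 FPKM (log2 -1.91, SE 0.76, adjusted p = 0.263). In knockdown cells limma also called 0 (0.0289% of all tested genes called), with 1 gene at an unadjusted p under 0.05. This was Ctsl, which was at 188 and 86.3 FPKM in growth medium and at 254 and 253 at day 3 (log2 0.99, SE 0.38, adjusted p = 0.352). The 2 growth medium libraries of a line often lay far apart: Cd68 was at 5.29 and 2.21 FPKM and Cst3 at 1122 and 539 FPKM in knockdown cells.

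Knockdown against control in growth medium called 0 of 8 genes by limma, with 0% of all tested genes called and 0 members at an unadjusted p under 0.05. Values ranged from -0.25 for Cst3 (SE 0.49) to 1.70 for Ctsh (SE 0.81) on the log2 scale. At differentiation day 3 limma called 0 of 8, with 1.98% of all tested genes called in either direction. At an unadjusted p under 0.05 there were 5, a count with no share of all tested genes beside it. For 7 of the 8, all but Cst3, both knockdown libraries lay above both control libraries, as they did for 29.3% of all tested genes.

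Ctsh had the largest difference, at 2.80 and 3.96 FPKM in knockdown cells against 0.122 and 0.227 in control cells (log2 3.67, SE 0.81, adjusted p = 0.0831). The replicate numbers paired the cell libraries, and with the replicate as a block this call was made, at the same log2 difference with an adjusted p of 0.0242, which raised the count of called genes from 0 to 1, beside 3.65% of all tested genes called with the block. In growth medium the knockdown libraries were at 1.14 and 3.90 FPKM and the control libraries at 0.238 and 1.29, so those ranges overlapped. Ctsh has a low level here, with 15 to 351 reads per library.

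Ctsd was at 357 and 392 FPKM in knockdown cells against 181 and 188 in control cells (log2 1.02, SE 0.24, adjusted p = 0.0959). Ctsl was at 254 and 253 FPKM against 113 and 132 (log2 1.05, SE 0.38, adjusted p = 0.217), and Ctsz at 182 and 214 against 106 and 126 (log2 0.77, SE 0.21, adjusted p = 0.131). Lgmn, at 79.4 and 91.3 FPKM against 52.9 and 58.3, differed by 0.62 (SE 0.25, adjusted p = 0.270). Fitting only these 4 libraries called 5 genes (Ctsd, Ctsh, Ctsl, Ctsz and Lgmn), beside 19.1% of all tested genes. Ctsb differed by 0.15 (SE 0.33, adjusted p = 0.897) and Cst3 by -0.05 (SE 0.49, adjusted p = 0.978).

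The difference between the 2 knockdown effects, tested as an interaction, called 0 of 8 genes (0% of all tested genes), with 1 member, Ctsd, at an unadjusted p under 0.05. Its knockdown effect was larger at day 3 by 0.85 on the log2 scale (SE 0.34, adjusted p = 0.556). The state of the cultures moved with these values. At day 3 the myofibre markers summed to 644 FPKM in both control libraries and to 14.8 to 19.7 in the knockdown libraries. The myogenic markers summed to 349 to 383 against 21.2 to 24.3. In knockdown growth medium these sums were 5.98 to 102 and 5.73 to 42.4, ranges that enclose the knockdown day 3 sums. In control growth medium they were 22.7 to 151 and 9.83 to 27.4. The paper, by blots and staining, reported more MyHC protein and more fusion after knockdown. The macrophage markers summed to 1.70 to 1.74 FPKM in control and 7.19 to 8.15 in knockdown day 3 cells, mostly from Lyz2, with Adgre1 and the C1q genes at 0. Mpeg1 was at 1.29 and 0.597 FPKM in knockdown day 3 cells and at most 0.0512 in the other cell libraries. The part of these markers in the cathepsin levels was not tested. Of 35 lysosomal hydrolases tested, 3 were higher in knockdown cells at day 3 and 0 were lower (median 0.42), beside 1.29% of all tested genes called higher and 0.687% lower, including Gm2a (log2 1.68, adjusted p = 0.0220) and Smpd1 (1.17, adjusted p = 0.0354), while 0 of 18 V-ATPase subunits were called (median -0.07).

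The genes lie on 8 mouse chromosomes in the GRCm38 annotation. Ctsk (chr3:95499256-95509362) and Ctss (chr3:95526786-95556403), both on the plus strand, are neighbours with 17423 bases between them. Ctsb (chr14:63122462-63145923) overlaps exons of Fdft1 on the opposite strand over 774 bases, Ctsd (chr7:142375911-142388038) those of Gm49369 on the same strand over 808 bases, and Ctsz (chr2:174427493-174439039) those of Nelfcd over 10 bases. Ctsl (chr13:64359337-64370890) overlaps the antisense gene Gm47123 and the pseudogene Gm49230. No strand setting of the counting is given in the sources used here, so reads in these overlaps cannot be assigned with certainty. Ctsh (chr9:90054152-90076089), Lgmn (chr12:102394084-102439813), Cd68 (chr11:69664213-69666153) and Cst3 (chr2:148871722-148875692) overlap no other exon. The exon lengths behind the FPKM ranged from 1257 bases for Cd68 to 6489 for Ctsl, so the FPKM of Ctsl and Ctsb, at 6051 bases, depend most on long annotated exons.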

How the data were processed

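Total RNA was sequenced after library preparation with a SMARTER mRNA kit. Per the study's methods, the authors aligned reads with HISAT2 to the Ensembl GRCm38 genome, counted them with featureCounts and computed the deposited FPKM with DESeq2's fpkm function, each table separately. Tool versions and the strand setting are not given in the sources used here.

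Genes that reached 0.5 FPKM in 2 or more libraries of a table were tested (16753 in muscle, 13824 in cells) with limma 3.58.1 (lmFit, eBayes with trend) in R 4.3.3 on log2(FPKM + 0.1), with all groups of a table in 1 fit and Benjamini-Hochberg adjustment over all tested genes. The count model of the study's methods was not used, since the values are not counts. Shares of all tested genes called were computed for the adjusted p only, so counts at an unadjusted p are no result about the members. Depth was read from the FPKM worth 1 read, and 97.0% to 98.9% of low values were whole reads within 0.05 of a read. It bears on precision but entered no test. The scripts were tested on simulated data. Alternatives were other pseudocounts, filters, scalings and sample sets, a replicate block, a term for Xist and leaving out each library.

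In cells, deviations of same-numbered libraries from their group means correlated at 0.278 to 0.680 in all 6 pairs, so the numbers were taken to pair the libraries. The blocked value stands in the report where it changed a call.

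The members and lists were chosen with earlier results of these data known. All 10 members were named. Genes of the other lists whose changes are given were drawn from up to 2 called genes per direction and list. These had the largest changes and averaged 1 FPKM or more in the group that was higher. The comparisons were day 3 against day 0 in muscle and 2 in cells (control day 3 against growth medium, and knockdown against control at day 3). Correlated genes were drawn from the 3 closest to each member over the 10 muscle libraries. Not every gene that met these rules is named. Promoter windows come from RefSeq on GRCm38.p6. Fold changes from the authors' own comparisons were not used.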

Additional observations from a re-analysis of the deposited data

How the results depend on the processing

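With 2 libraries per group, most calls other than those of day 3 against day 0 and day 10 against day 3 depended on single libraries. In muscle the calls over all tested genes also became fewer in most fits without 1 library. Depth limited Ctsk and Ctss in cells, at no more than 37 and 7 reads, and Ctsh and Cd68 at control differentiation day 3, at 15 to 17 and 14 to 24 reads. In day 0 muscle the lowest libraries held 29 reads of Ctsk and 30 of Cd68. The share of all genes in the same fit that were called is given in brackets. The count of called genes at day 1 against day 0 was 2 with no filter on low values (1.33%) and 0 with only the groups compared (0%). It was 0 with the Xist term (0%) and 1 with an added log2 fold change of at least 2 (1.48%). For day 5 against day 0 it was 0 with the Xist term, beside 0% of all tested genes, as at day 1 against day 0 and day 5 against day 3. For day 3 against day 1 it was 3 with no filter (15%), 2 with the Xist term (8.17%) and 3 with the added fold change (6.02%). For day 5 against day 3 it was 0 with the Xist term (0%) and 0 with the added fold change (1.67%). For day 10 against day 3 it was 4 with the added fold change (8.28%). For knockdown against control at differentiation day 3 it was 1 with the replicate block and 5 with only the groups compared. Leaving out 1 library each gave 0 to 3 at day 1 and 0 to 6 at day 5 against day 0, 2 to 3 at day 3 against day 1, and 0 to 1 at day 5 against day 3.

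In muscle the replicate numbers did not pair the libraries (10 correlations of -0.0187 to 0.211, of which 2 were above 0.1), and no sample sheet ties them. With a replicate block, 4, 8 and 7 genes were called at day 1, 3 and 5 against day 0, beside 5.44%, 49.6% and 27.5% of all tested genes. Of the 7 at day 5, 6 were higher and 1 was lower. At day 10 against day 0 the count was 0, beside 0.0119%. It was 5 at day 3 against day 1 (33% of all tested genes), 5 at day 5 against day 3 (13.5%) and 7 at day 10 against day 3 (39.5%). The block changed no other call in cells than that of Ctsh.

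Quantile normalization moved the median of all genes at day 3 against day 0 to -0.12, and it turned the sign of these differences, none of them called: 0.041 for Cst3 at day 1, 0.50 for Cst3 at day 3, and 0.0090 for Ctsd and 0.0073 for Ctsl at day 5, all against day 0; -0.024 for Ctsk at day 5 against day 3; 0.18 for Ctsb, 0.19 for Ctsd and 0.12 for Ctsl on control differentiation; 0.14 for Ctsb, 0.045 for Ctsl, 0.051 for Lgmn and 0.16 for Cst3 for knockdown in growth medium; and -0.034 for Ctsb and -0.34 for Cst3 for the interaction. The Xist term turned Ctsl at day 1 to -0.088.

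Leaving out 1 library turned the sign of further differences that were not called, over these ranges. At day 1 against day 0, Ctsk ran from -0.79 to 1.03, and at day 3 against day 0, Cst3 from -0.26 to 0.073. At day 10 against day 0 the range was -0.072 to 0.11 for Ctsb, -0.29 to 0.058 for Ctsd, -0.12 to 0.42 for Ctsl, -0.20 to 2.68 for Ctss and -0.31 to 0.020 for Cst3. At day 3 against day 1 it was -0.077 to 0.23 for Ctsd, -0.10 to 0.49 for Ctsl and -0.061 to 0.24 for Cst3. Ctsk ran from -0.20 to 0.34 at day 5 against day 3 and from -1.88 to 0.16 at day 10 against day 3, where Cst3 ran from -0.20 to 0.10. On control differentiation, Ctsb ran from -0.65 to 0.0042 and Cst3 from -0.13 to 0.58. On knockdown differentiation the range was -0.29 to 0.31 for Ctsb, -0.22 to 1.47 for Ctsh, -0.029 to 0.23 for Ctsz, -0.61 to 0.0044 for Lgmn and -0.10 to 0.96 for Cst3. For knockdown in growth medium it was -0.52 to 0.14 for Ctsb, -0.064 to 0.40 for Ctsd, -0.76 to 0.36 for Ctsl, -0.45 to 0.17 for Lgmn, -0.88 to 1.40 for Cd68 and -0.78 to 0.28 for Cst3. For knockdown at day 3, Cst3 ran from -0.40 to 0.31, and for the interaction Cd68 ran from -0.55 to 1.73 and Cst3 from -0.33 to 0.73. The causes were not tested. Of 1414 values over 110 gene results, 1217 kept their direction and side of the threshold.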

Other observations

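The day 0 and day 10 muscle pairs were the least alike for these genes. Of the 10 genes, the second library was higher for 6 on day 0 and for 8 on day 10, with gaps of up to 1.82 and 2.88 log2 units. The 10 macrophage markers were higher in the same library at both days, with median gaps of 0.90 and 1.47. On day 3 the median gap was 0.04 for the 10 genes and -0.04 for the macrophage markers. In C2C12 cells the median gap between libraries was -0.41 in control and -0.84 in knockdown growth medium, against 0.21 and 0.17 at differentiation day 3.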
